A study of Mus musculus with 4 samples.

Results

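The genes described here are 7 members of the ectodysplasin branch of tumour necrosis factor (TNF) signalling and its nuclear factor kappa B (NF-kB) readout, followed through the epithelium and mesenchyme of the mouse submandibular and parotid salivary glands at embryonic day 12. They were found by gene symbol among the 27998 genes of the count matrices, and each of the 7 symbols matched 1 row. By role they are the ligand Eda, the receptor Edar and its relative Tnfrsf19, the adaptor Edaradd, the inhibitor Nfkbia, and the NF-kB subunit genes Nfkb2 and Relb. The glands came from embryos of the ICR strain, approximately 10 of each kind pooled, and no group carried a treatment. Dispase II loosened the epithelium from the mesenchyme, each tissue was broken up with a cold protease mixture, and single cells were captured on the 10x Chromium system, which tags each RNA molecule with a unique molecular identifier (UMI). There are 4 libraries, 1 for each of submandibular epithelium, parotid epithelium, submandibular mesenchyme and parotid mesenchyme, so no group has a replicate and no test between groups could be made. All intervals below are 95% intervals that cover counting error only.

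Ectodysplasin is a TNF family ligand that binds the receptor EDAR on neighbouring cells. EDAR recruits the adaptor EDARADD through a death domain, and the complex switches on the kinases that destroy the inhibitor IkB-alpha (the product of Nfkbia) and free NF-kB. Mutations of the pathway in mice and humans impair hair, teeth, sweat glands and salivary glands. In the embryonic mouse submandibular gland the ligand is known mainly from mesenchyme and the receptor from epithelium.

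Cells were sorted into classes by clustering and marker genes, and levels are UMIs of a gene per 1000000 UMIs of a class (CPM). The 4 main classes were the epithelial-like cells of each epithelium library (3605 submandibular and 1752 parotid) and the mesenchymal-like cells of each mesenchyme library (4242 submandibular and 3912 parotid). Their summed depth ran between 13217374 and 38224238 UMIs, and the median per cell was 9838 UMIs in submandibular epithelium, 7102 in parotid epithelium, 5275 in submandibular mesenchyme and 5561.5 in parotid mesenchyme. Epcam, a defining epithelial adhesion gene, stood at 666 and 483 CPM in submandibular and parotid epithelial-like cells, against 15.6 and 2.11 CPM in the submandibular and parotid mesenchymal-like cells. The collagen gene Col3a1 stood at 0.105 and 4.92 CPM in the epithelial-like classes, against 820 and 829 CPM in the mesenchymal-like ones. A parotid epithelial-like cluster of 247 cells was led by macrophage genes (C1qc, C1qb, Tyrobp), with Epcam in 73.7% of its cells. Of 14875 clustered cells, 115 barcode sequences occurred in more than 1 library. A gene was called higher or lower when it reached 5 CPM in the higher class and differed at least 2-fold, a rule of size and not a test.

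By that rule the clearest tissue pattern was Tnfrsf19, called higher in epithelium in both glands. In the submandibular gland 1 of the 4 members that could be judged was called higher in epithelium, beside 9.63% of all genes tested, and 0 were called lower, beside 21.9%. In the parotid gland 2 of 5 members, Edaradd and Tnfrsf19, were called higher in epithelium, beside 9.58% of all genes, and 0 lower, beside 12.6%. Between the epithelia, 0 of 5 members were called higher in submandibular than in parotid epithelium, beside 3.01% of genes, and 1, Tnfrsf19, was called lower, beside 5.02%. Between the mesenchymes, 1 of 4, Edaradd, was called higher in submandibular than in parotid mesenchyme, beside 7.48%, and 1, Tnfrsf19, lower, beside 4.44%. The median log2 ratio of the members judged was 0.83 in the submandibular and 0.90 in the parotid epithelium-over-mesenchyme comparison, beside -0.24 and -0.05 over all genes tested there. Submandibular over parotid, it was -0.44 for epithelium and -0.01 for mesenchyme, beside -0.04 and 0.10 over all genes.

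**Figure D1:**
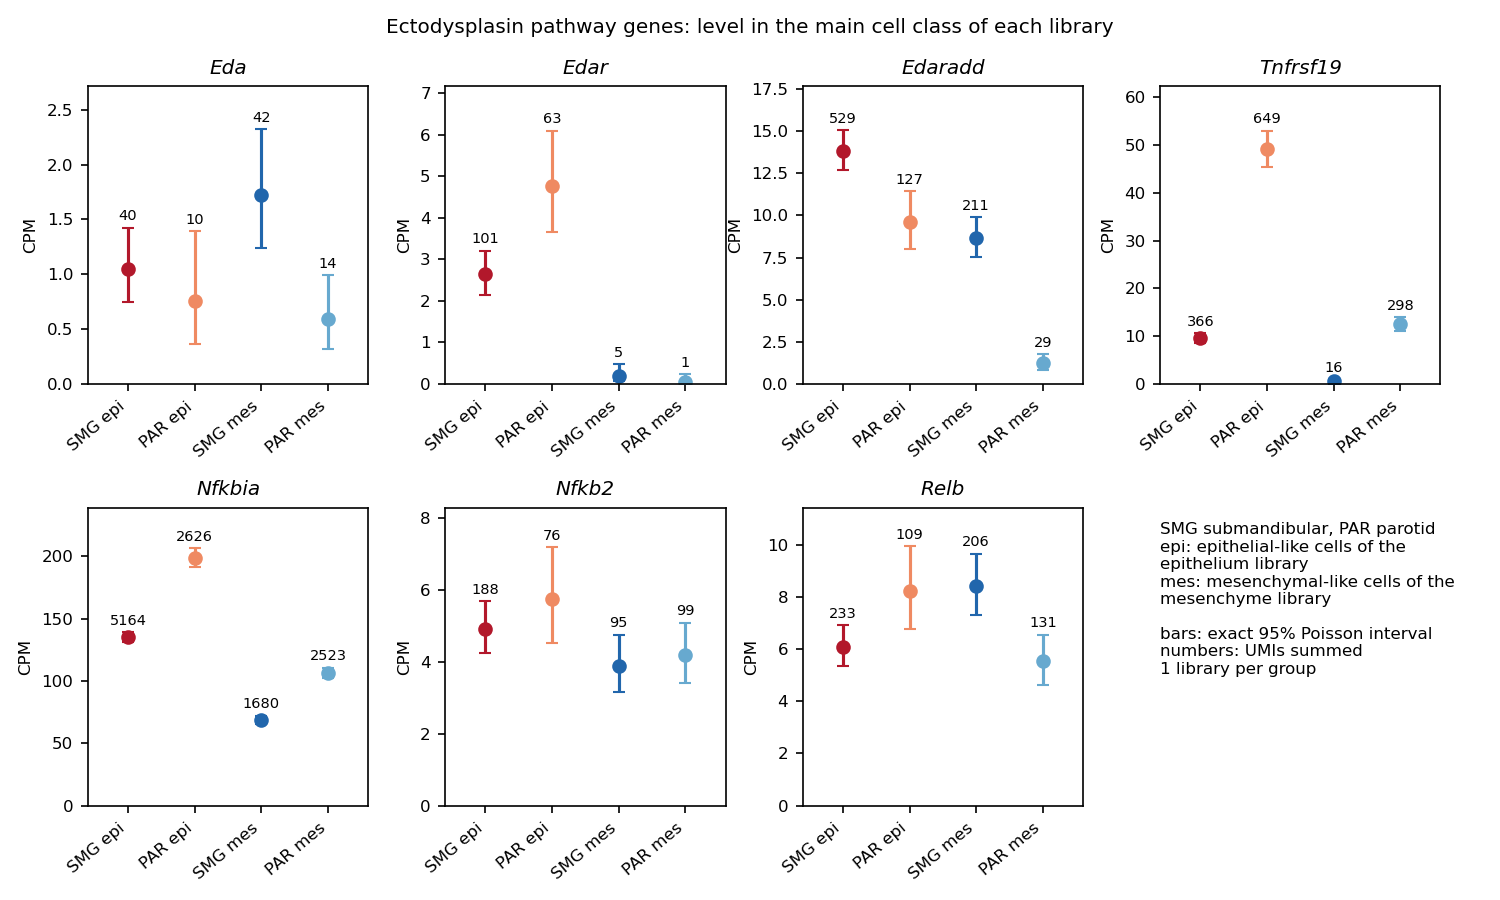
Level of each member in the main cell class of each library, in CPM, with exact 95% Poisson intervals as bars and the UMIs behind each point printed above it (1 library per group; SMG submandibular, PAR parotid). Edar has 101 and 63 UMIs in the submandibular and parotid epithelial-like cells and 5 and 1 in the submandibular and parotid mesenchymal-like cells, while the intervals of Eda overlap between the tissues of each gland.

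Eda (chrX:99975606-100400762, plus strand, GRCm38), the ligand gene, was detected at very low levels in both tissues of both glands. The annotation places 4 genes, the processed pseudogenes Gm14832, Gm14829 and Gm14828 and the miRNA gene Mir676, within it on the same strand, and reads there cannot be assigned with certainty. The epithelial-like cells held 40 (submandibular) and 10 (parotid) UMIs, against 42 (submandibular) and 14 (parotid) in the mesenchymal-like cells. These are levels of 1.05 CPM (interval 0.748 to 1.42) in submandibular and 0.757 CPM (0.363 to 1.39) in parotid epithelium. In mesenchyme they are 1.72 CPM (1.24 to 2.32) in the submandibular and 0.591 CPM (0.323 to 0.991) in the parotid gland. Submandibular epithelium over mesenchyme was 0.608 (0.385 to 0.961). Under TMM scaling, which rescales library totals, it was 0.738 with an interval of 0.467 to 1.17 that includes 1, so a lower epithelial level of Eda rests on the scaling. The parotid ratio was 1.28 with an interval of 0.509 to 3.10 that spans both directions. Between the mesenchymes Eda was higher in submandibular than in parotid cells, with a ratio of 2.91 (1.56 to 5.77), though both are under 5 CPM.

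Within submandibular mesenchyme the 42 Eda UMIs were spread unevenly over the 9 clusters. The cluster led by Tmem100 and Ebf2 held 11 of them in 438 cells, 4.38 CPM (2.18 to 7.83), and the clusters led by Matn2 and by Kera held 8 each, 3.45 and 2.99 CPM. No Eda UMI was found in the clusters led by Cited1, Clu and Hist1h2bc, where 0 UMIs still allow an upper limit of 1.31, 1.03 and 4.69 CPM, that of 3 UMIs. Among 10912 genes ranked over the 22 mesenchymal-like clusters of both glands, those whose log2 level followed Eda most closely were Chrdl1, which encodes a secreted BMP antagonist (Pearson r 0.78), Zfp608 (0.69), Rwdd4a (0.69), Pard3b (0.68) and Sptlc1 (0.68). These r values describe clusters that share a library within each gland, at levels of Eda that never exceeded 4.38 CPM.

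**Figure D2:**
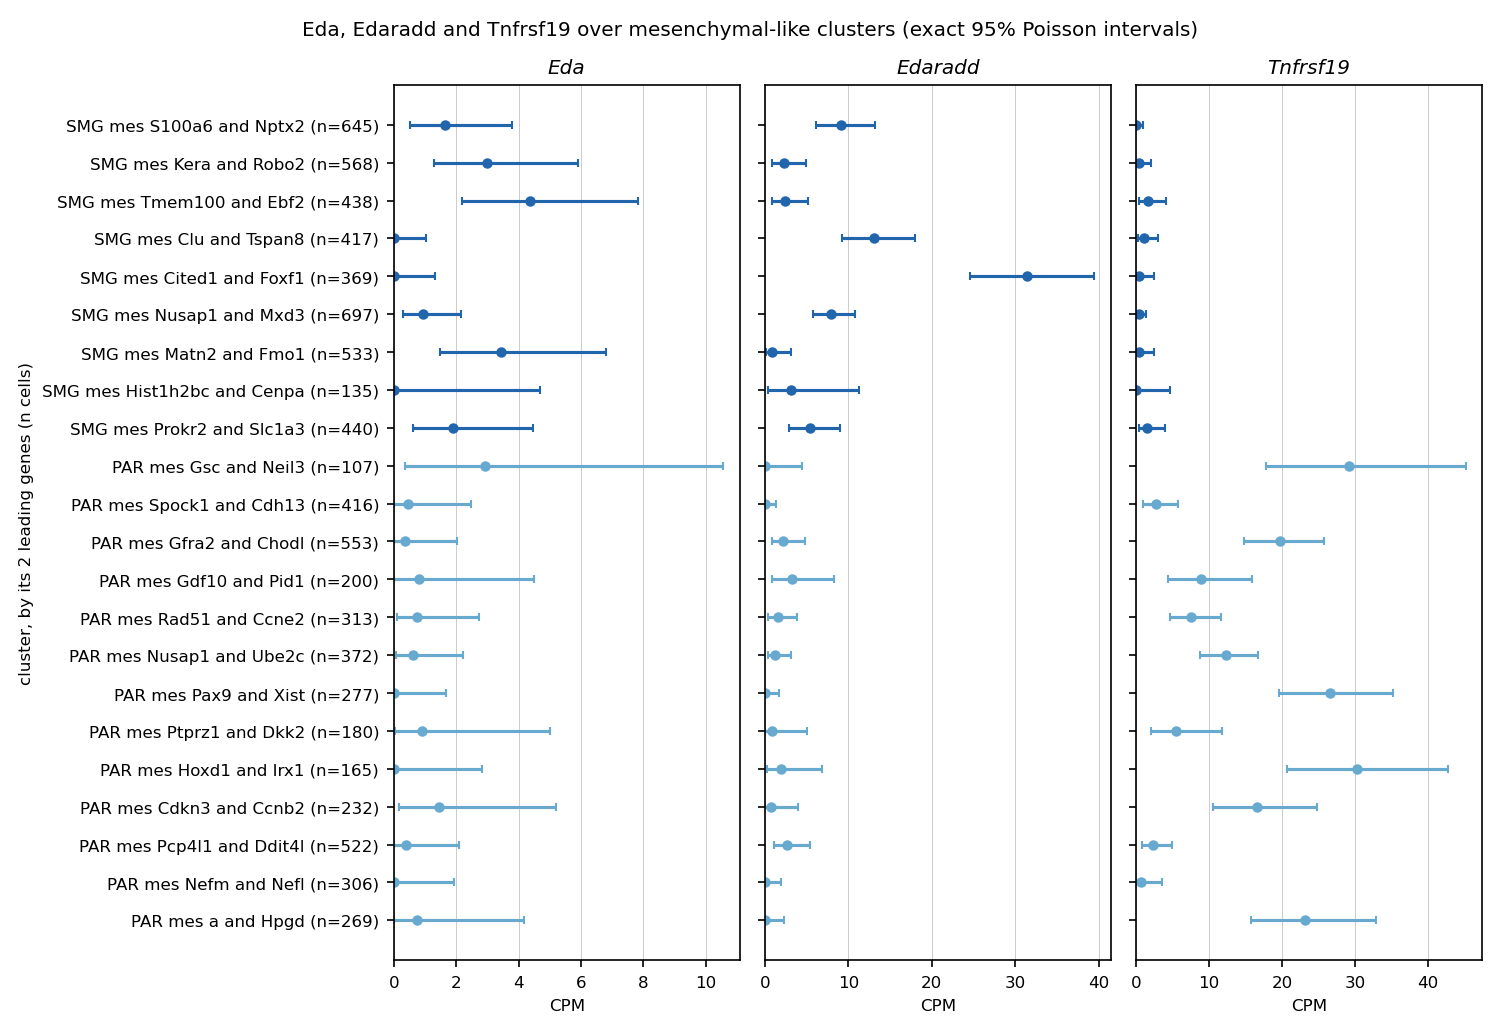
Eda, Edaradd and Tnfrsf19 over the mesenchymal-like clusters, in CPM with exact 95% Poisson intervals (at 0 UMIs, a bar to the limit of 3 UMIs), clusters named by their 2 leading genes with the number of cells (SMG submandibular, PAR parotid). Edaradd peaks at 31.4 CPM in the submandibular Cited1 and Foxf1 cluster and Tnfrsf19 at 30.3 CPM in the parotid Hoxd1 and Irx1 cluster, while every Eda value is at or under 4.38 CPM.

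Edar (chr10:58600789-58675654, minus strand), the receptor gene, had nearly all of its counts in epithelium. It had 101 submandibular and 63 parotid UMIs in epithelial-like cells, against 5 submandibular and 1 parotid UMIs in mesenchymal-like cells. The levels were 2.64 CPM (2.15 to 3.21) and 4.77 CPM (3.66 to 6.10) in the submandibular and parotid epithelium, against 0.205 CPM (0.0665 to 0.478) and 0.0422 CPM (0.00107 to 0.235) in the submandibular and parotid mesenchyme. All 4 levels lie under the 5 CPM limit, so the size rule makes no call, but the intervals of epithelium and mesenchyme do not overlap in either gland. The ratio of epithelium over mesenchyme was 12.9 (5.35 to 40.6) in the submandibular gland and 113 (19.5 to 4530) in the parotid gland, the second resting on a single mesenchymal UMI. When mesenchymal-like cells with any UMI of 9 epithelial markers were set aside, these ratios were 14.1 and 110.

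The few mesenchymal Edar counts can be set beside epithelial genes that mesenchyme should lack. In submandibular mesenchymal-like cells Edar stood at 7.75% of its epithelial level, and 6 epithelial markers of at least 50 CPM stood at a median of 1.21% and at most 3.54%. In parotid mesenchymal-like cells Edar stood at 0.886%, and 7 such markers at a median of 0.0903% and at most 1.07%. Pitx1 was left out of both because it was higher in mesenchyme in both glands. As a ratio of mesenchyme over epithelium, Edar was 0.0775 (0.0246 to 0.187) in the submandibular gland, from 5 mesenchymal UMIs. In the parotid gland it was 0.00886 (0.000221 to 0.0512), from 1. Each interval includes the level of the highest marker. The submandibular interval lies above the marker median of 1.21%, and the parotid one includes its median of 0.0903%. The part that free RNA or left-over epithelial cells have in the mesenchymal Edar counts was not tested. After every cell was thinned to 3000 UMIs, Edar was seen in 0.612% of submandibular and 1.13% of parotid epithelial-like cells, against 0.0978% of submandibular and 0% of parotid mesenchymal-like cells, the last allowing up to 0.0790%. Before thinning the shares were 2.77% and 3.14% in submandibular and parotid epithelium, against 0.118% and 0.0256% in submandibular and parotid mesenchyme. Erythroid-like cells, which should lack the gene, had 0 Edar UMIs in 106 submandibular cells of median depth 17195 UMIs and in 69 parotid cells of median depth 16904 UMIs, which allow shares of up to 2.83% and 4.35%. The globin gene Hbb-y alone took 388238 and 341357 CPM of the erythroid-like UMIs, so the depth left for other genes was lower.

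In parotid epithelium about as many Edar UMIs came from 1 small cluster as from all other cells. The cluster of 109 cells led by Lhx2, Nrp2, Krtdap, Wif1 and Krt17 held 31 of the 63 UMIs, 49.2% of the UMIs in 6.22% of the cells. Its Edar level was 36.0 CPM (24.5 to 51.1), against 2.59 CPM (1.77 to 3.66) in the other parotid epithelial-like cells. The next highest parotid cluster, led by Igfbp3 and Ngfr, had 7.84 CPM (4.05 to 13.7) from 12 UMIs. In submandibular epithelium no cluster stood out in this way: the 9 clusters lay between 0.772 CPM and 4.51 CPM (2.58 to 7.32), the highest value being that of the Ung cluster. Submandibular over parotid epithelium was 0.554 (0.401 to 0.772) for Edar. It was 1.02 once the Lhx2 cluster was left out, a removal that could only raise the ratio, because the cluster is the parotid one highest in Edar and no submandibular cells were removed.

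The Lhx2 cluster carried other genes known from the placodes of skin appendages, the local thickenings in which EDAR signalling is best described. Its best marker list, however, was that of periderm and stratified ectoderm. At Leiden resolution 1.6 a separate parotid cluster of 17 cells was led by Krtdap and Krt17, so the Lhx2 cluster may be mixed. Whether it is a placode population was not tested. Lhx2, Shh and Lef1 had a UMI in 72.5%, 32.1% and 30.3% of the cells of the Lhx2 cluster. The morphogen gene Shh stood at 75.5 CPM there, against 0.324 CPM in the other parotid epithelial-like cells. The Wnt inhibitor gene Dkk4 stood at 69.7 CPM against 7.93 CPM, and the Wnt effector gene Lef1 at 61.6 CPM against 19.7 CPM. The TNF family ligand gene Ltb was at 54.6 CPM in the cluster and 9.39 CPM in the rest, and Wnt10b at 9.30 and 3.40 CPM. Wnt10a ran the other way, with 18.6 CPM in the cluster and 46.6 CPM in the rest, and so did Sox10, a transcription factor gene of salivary end buds, with 2.32 and 23.4 CPM. Icam1, another gene reported to respond to ectodysplasin, hardly differed, with 25.6 CPM in the cluster and 22.6 CPM in the rest. Its ratio was 1.13, with an interval of 0.698 to 1.75 that includes 1. Clusters were built from these same cells, so all these differences are descriptions. Of the other members, Relb stood at 17.4 CPM (9.76 to 28.8) in the Lhx2 cluster, against 7.61 CPM (6.15 to 9.31) in the rest. Edaradd (10.5 and 9.55 CPM), Tnfrsf19 (58.1 and 48.5 CPM) and Nfkb2 (8.14 and 5.58 CPM) had overlapping intervals in the cluster and the rest. Nfkbia stood at 241 CPM (209 to 276) in the cluster and 196 CPM (188 to 204) in the rest, without overlap. The ligand Eda had 0 UMIs in the cluster, which allows up to 3.49 CPM.

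Over the 21 epithelial-like clusters of both glands, the genes most like Edar of 10765 ranked were Gad1, which encodes a GABA-synthesising enzyme (r 0.78), Shh (0.74), Gpm6b (0.73), Nts (0.73) and Mical2 (0.73). Relb came nearest among the members (0.60) and Edaradd, the adaptor of the receptor, did not follow it (-0.01). These r values describe clusters that share a library within each gland, and the Lhx2 cluster alone lies far above the others in Edar.

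**Figure D3:**
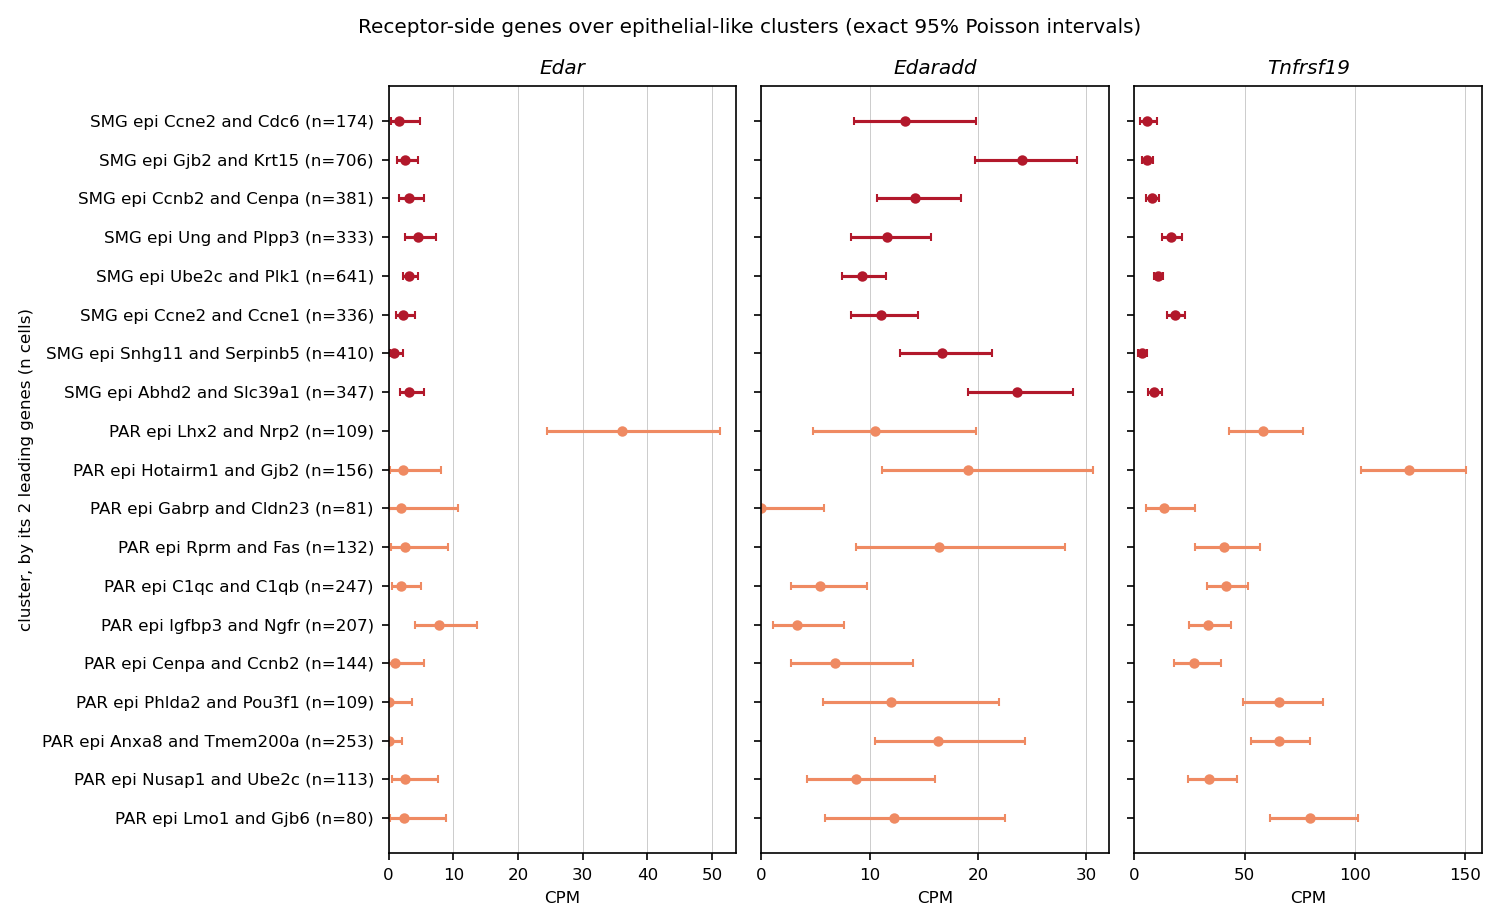
Edar, Edaradd and Tnfrsf19 over 8 of the 9 submandibular and 11 of the 12 parotid epithelial-like clusters, in CPM with exact 95% Poisson intervals (at 0 UMIs, a bar to the limit of 3 UMIs), clusters named by their 2 leading genes with the number of cells (SMG submandibular, PAR parotid). The parotid Lhx2 and Nrp2 cluster is at 36.0 CPM for Edar and every other cluster drawn is at or under 7.84 CPM.

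Tnfrsf19 (chr14:60963875-61046490, minus strand), also called Troy, encodes a TNF receptor family member related to EDAR that does not bind ectodysplasin and is known as a Wnt target in stem and progenitor cells. A long non-coding gene, Gm41168, overlaps it on the opposite strand, and the use of strand in counting is not given in the sources used here. Tnfrsf19 had 366 submandibular and 649 parotid UMIs in epithelial-like cells, against 16 submandibular and 298 parotid UMIs in mesenchymal-like cells. The levels were 9.58 CPM (8.62 to 10.6) in submandibular and 49.1 CPM (45.4 to 53.0) in parotid epithelium. They were 0.655 CPM (0.374 to 1.06) in submandibular and 12.6 CPM (11.2 to 14.1) in parotid mesenchyme. Epithelium was above mesenchyme in each gland and parotid was above submandibular in each tissue, with no overlapping intervals in these pairs. Epithelium over mesenchyme was 14.6 (8.88 to 25.8) in the submandibular and 3.90 (3.40 to 4.49) in the parotid gland. Submandibular over parotid was 0.195 (0.171 to 0.222) in epithelium and 0.0521 (0.0294 to 0.0860) in mesenchyme, which makes parotid 5.13 and 19.2 times higher. With all cell classes pooled the submandibular epithelium over mesenchyme ratio was 5.4 and the mesenchymal ratio of the glands 0.126. Those pools include muscle-like cells, whose levels are given further on.

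In parotid epithelium Tnfrsf19 was found in each of the 12 clusters, between 13.4 CPM in the Gabrp cluster and 125 CPM (103 to 150) in the Hotairm1 cluster, where 50.6% of cells had a UMI. The submandibular clusters ran between 0.772 CPM and 18.6 CPM (14.9 to 22.8), the highest value being that of the Ccne2 and Ccne1 cluster of 336 cells. In parotid mesenchyme it was highest in the clusters led by Hoxd1 (30.3 CPM), Gsc (29.2 CPM) and Pax9 (26.6 CPM), and lowest in that led by Nefm (0.649 CPM). Each of the 9 submandibular mesenchymal clusters was at or under 1.59 CPM. The genes most like Tnfrsf19 over epithelial-like clusters were Aldoa (r 0.91), Ckb (0.90), Lef1 (0.89), Cxcl14 (0.89) and Irx3 (0.87). The clusters come from both epithelium libraries, so a difference between the libraries is part of each of these r values.

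The 118 epithelial-like cells caught in the parotid mesenchyme library allow the tissues to be set side by side within 1 library. Tnfrsf19 stood there at 33.2 CPM (23.1 to 46.1), above the 12.6 CPM of the mesenchymal-like cells beside them, and Edaradd at 14.2 CPM (7.96 to 23.4), above 1.22 CPM (0.820 to 1.76). Nfkbia stood at 150 CPM (127 to 175), above 106 CPM (102 to 111), and Relb at 11.4 CPM (5.88 to 19.9), against 5.53 CPM (4.62 to 6.56). Nfkb2 ran the other way, at 1.90 CPM (0.230 to 6.85) from 2 UMIs, against 4.18 CPM (3.40 to 5.09), with overlapping intervals. Eda had 1 UMI in the epithelial-like cells of this library. Edar had 0 UMIs in these cells, which allows up to 2.84 CPM. That limit is under the interval of Edar in the parotid epithelium library (3.66 to 6.10 CPM). It is above the 2.59 CPM of the cells there outside the Lhx2 cluster. The parotid mesenchyme library thus gave no second detection of epithelial Edar. Its 0 UMIs cannot tell a lower level from that of the parotid epithelial-like cells outside the Lhx2 cluster.

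**Figure D4:**
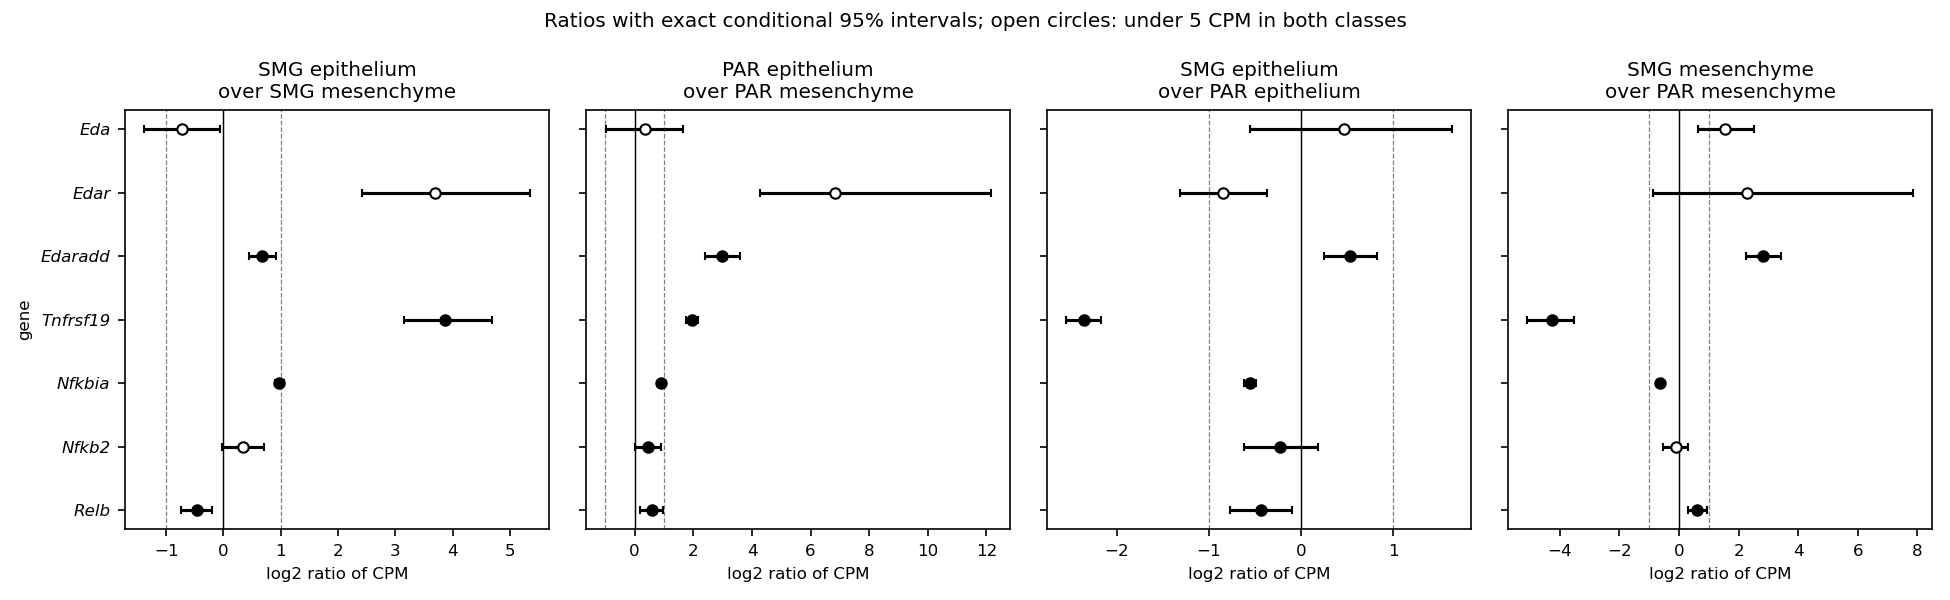
Log2 ratio of CPM for each member in the 4 comparisons, with exact conditional 95% intervals; dashed lines mark a 2-fold difference and open circles mark members under 5 CPM in both classes (SMG submandibular, PAR parotid). Tnfrsf19 passes the dashed line in each panel, higher in epithelium than in mesenchyme and lower in submandibular than in parotid tissue.

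Edaradd (chr13:12472632-12520438, minus strand), the adaptor gene, was epithelial in the parotid gland but present in both tissues of the submandibular gland. It had 529 submandibular and 127 parotid UMIs in epithelial-like cells, 13.8 CPM (12.7 to 15.1) and 9.61 CPM (8.01 to 11.4). The mesenchymal-like cells had 211 UMIs in the submandibular gland, 8.64 CPM (7.51 to 9.89), and 29 in the parotid gland, 1.22 CPM (0.820 to 1.76). Parotid mesenchyme thus stood apart from the other classes. Epithelium over mesenchyme was 1.6 (1.36 to 1.89) in the submandibular gland and 7.85 (5.21 to 12.2) in the parotid gland. The submandibular ratio was 1.94 under TMM scaling and 1.16 under a stricter cell filter (1000 genes as the minimum, 5% mitochondrial UMIs as the maximum). Submandibular over parotid was 1.44 (1.18 to 1.76) in epithelium and 7.06 (4.77 to 10.8) in mesenchyme.

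The submandibular mesenchymal signal had a local peak. A cluster of 369 cells led by Cited1, Foxf1, Frzb, Col8a1 and Pax9 held 72 of the 211 UMIs, 34.1% of the UMIs in 8.70% of the cells, at 31.4 CPM (24.5 to 39.5). The highest submandibular epithelial cluster, led by Gjb2 and Krt15, had 24.1 CPM (19.7 to 29.2), with an interval that overlaps that of this mesenchymal cluster. Epcam was seen in 2.17% of the cells of that mesenchymal cluster, and Edar had 0 UMIs in it. The next mesenchymal clusters were led by Clu (13.1 CPM) and S100a6 (9.12 CPM), and the lowest by Matn2 (0.863 CPM). Neural crest and glia-like cells of the same library had 16.5 CPM (10.7 to 24.4) from 25 UMIs.

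Among parotid epithelial clusters Edaradd was lowest in the cluster led by Gabrp and the claudin gene Cldn23, with 0 UMIs and an upper limit of 5.75 CPM. Its highest parotid level was 19.1 CPM (11.1 to 30.6) in the Hotairm1 cluster. Trp63, which encodes the p63 regulator of basal epithelium, was among the 5 genes most like Edaradd (r 0.82), together with Snai2 (0.83), B4galt2 (0.83), Sparc (0.83) and Fermt1 (0.82). These r values too cover clusters of both epithelium libraries.

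Nfkbia (chr12:55489410-55492647, minus strand) encodes IkB-alpha, which holds NF-kB in the cytoplasm and is itself a well-known NF-kB target. It had enough UMIs to be judged in each class: 5164 submandibular and 2626 parotid UMIs in epithelial-like cells, against 1680 submandibular and 2523 parotid UMIs in mesenchymal-like cells. The levels were 135 CPM (131 to 139) in submandibular and 199 CPM (191 to 206) in parotid epithelium, against 68.8 CPM (65.5 to 72.2) in submandibular and 106 CPM (102 to 111) in parotid mesenchyme. Epithelium was above mesenchyme in each gland and parotid above submandibular in each tissue, all by less than 2-fold. Epithelium over mesenchyme was 1.96 (1.86 to 2.08) in the submandibular and 1.87 (1.77 to 1.97) in the parotid gland. The submandibular ratio passed 2-fold under TMM scaling (2.38), which shifts all log2 ratios of that comparison by 0.28. Submandibular over parotid was 0.680 (0.649 to 0.713) in epithelium and 0.646 (0.607 to 0.687) in mesenchyme.

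Nfkbia also responds to handling, so genes induced by dissociation stand beside it. The 16 immediate early and heat shock genes examined summed to 4037 CPM in submandibular and 5854 CPM in parotid epithelium, against 5857 CPM in submandibular and 7518 CPM in parotid mesenchyme. They thus ran the same way as Nfkbia between the glands and the opposite way between the tissues. Of 15 that could be judged, 11 were called lower in submandibular than in parotid epithelium, beside 5.02% of all genes, and 0 higher, beside 3.01%. Jun (135 against 527 CPM) and Hspa1a (5.08 against 36.8 CPM) were among the 11. Over the clusters of a class, log2 Nfkbia and the log2 sum had r values of 0.60 over 9 submandibular and 0.42 over 12 parotid epithelial clusters, and 0.70 over 9 submandibular and -0.23 over 13 parotid mesenchymal clusters. The part of dissociation in the Nfkbia levels was not tested.

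Across the submandibular epithelial clusters Nfkbia ran between 73.7 CPM, in the Ccne2 and Cdc6 cluster, and 298 CPM. The parotid clusters ran between 54.9 CPM in the Phlda2 cluster and 360 CPM (330 to 391) in the Igfbp3 cluster. In parotid mesenchyme the Nefm cluster had 243 CPM (219 to 269) and the others lay between 48.2 and 140 CPM. The submandibular mesenchymal clusters lay between 53.0 and 95.5 CPM. After thinning to 3000 UMIs, Nfkbia was seen in 26.6% of submandibular and 33.6% of parotid epithelial-like cells, against 17.4% of submandibular and 25.7% of parotid mesenchymal-like cells. The thinned share in erythroid-like cells was 2.83% in the submandibular and 2.90% in the parotid mesenchyme library. The globin gene Hbb-y alone took 388238 and 341357 CPM there, so fewer of the 3000 UMIs were left for other genes. These shares are therefore not at equal depth with the other classes.

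Windows before the RefSeq starts of the NF-kB genes are shown because these genes are known to be feedback targets of the factor. In the 250 bases before each RefSeq start (build GRCm38.p6), the kappa B consensus was searched on both strands. It had a match in 7.25% of 32851 such windows of all genes. RefSeq windows were at hand for 6 of the 7 members, 9 windows in all. Relb had no window and was not searched. The window of Nfkbia (chr12:55492648-55492897, minus strand) held 1 match, printed in capitals, which ends 19 bases before the start:
Nfkbia: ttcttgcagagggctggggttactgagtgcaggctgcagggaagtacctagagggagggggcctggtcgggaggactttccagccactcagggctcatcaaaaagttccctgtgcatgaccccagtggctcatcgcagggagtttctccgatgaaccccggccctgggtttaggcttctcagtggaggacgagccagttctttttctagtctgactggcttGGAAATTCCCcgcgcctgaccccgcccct

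Nfkb2 has 3 RefSeq windows, with 3, 1 and 1 matches, of which the first pair overlap each other by all but 1 base. A match of the first window, at chr19:46304698-46304707 on the plus strand, and the match of the window farthest downstream, at chr19:46305705-46305714, are shown with their flanks, the match in capitals. Both lie inside the GENCODE gene, which starts upstream of them, and overlap annotated exons:
Nfkb2 upstream match: atcgtcacGGGAATTCCCcccctcgg
Nfkb2 downstream match: gtattttcGGGACTTTCCtaagcagc
The windows of Eda, Edar, Edaradd and Tnfrsf19 held 0 matches. A match describes letters in a window and not binding.

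Nfkb2 (chr19:46304320-46312385, plus strand) encodes p100, the precursor of p52, and Relb (chr7:19606217-19629438, minus strand) encodes the partner of p52 in the non-canonical NF-kB dimer. Nfkb2 is overlapped on the opposite strand by AC114539.1 and Psd. Nfkb2 had 188 submandibular and 76 parotid UMIs in epithelial-like cells, against 95 submandibular and 99 parotid UMIs in mesenchymal-like cells. The levels were 4.92 CPM (4.24 to 5.67) and 5.75 CPM (4.53 to 7.20) in submandibular and parotid epithelium, against 3.89 CPM (3.15 to 4.76) and 4.18 CPM (3.40 to 5.09) in submandibular and parotid mesenchyme. The epithelium over mesenchyme ratio of Nfkb2 was 1.26 (0.983 to 1.64) in the submandibular and 1.38 (1.01 to 1.87) in the parotid gland. Under TMM scaling the submandibular ratio was 1.53 with an interval of 1.19 to 1.98, above 1. Submandibular over parotid was 0.855 (0.652 to 1.13) in epithelium and 0.931 (0.695 to 1.25) in mesenchyme.

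Relb had 233 submandibular and 109 parotid UMIs in epithelial-like cells, against 206 submandibular and 131 parotid UMIs in mesenchymal-like cells. The levels were 6.10 CPM (5.34 to 6.93) in submandibular and 8.25 CPM (6.77 to 9.95) in parotid epithelium, against 8.44 CPM (7.32 to 9.67) in submandibular and 5.53 CPM (4.62 to 6.56) in parotid mesenchyme. Epithelium over mesenchyme was 0.723 (0.597 to 0.876) in the submandibular gland and 1.49 (1.15 to 1.94) in the parotid gland. Submandibular over parotid was 0.739 (0.586 to 0.937) in epithelium and 1.53 (1.22 to 1.91) in mesenchyme. Under TMM scaling the submandibular epithelium over mesenchyme ratio was 0.877 (0.724 to 1.06) and the ratio of the epithelia 0.801 (0.636 to 1.02), both with intervals that include 1. A submandibular epithelial level below that of its mesenchyme, or below that of parotid epithelium, thus rests on the scaling. The parotid epithelium over mesenchyme ratio under TMM was 1.53 (1.18 to 1.99). That interval stays above 1 and does not overlap the submandibular one.

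Over the epithelial clusters, which depend on the Leiden resolution (0.8 here), Nfkb2 and Relb had part of their pattern in common. In submandibular epithelium both were highest in the Ung cluster, Nfkb2 at 7.61 CPM (5.02 to 11.1) and Relb at 11.3 CPM (8.05 to 15.4), and both were lowest in the Snhg11 cluster, at 3.39 and 2.35 CPM. In parotid epithelium Relb was highest in the Igfbp3 cluster at 20.2 CPM (13.8 to 28.7), followed by the Lhx2 cluster at 17.4 CPM. Nfkb2 was highest in the parotid Rprm cluster at 12.6 CPM (6.06 to 23.2), with 9.80 CPM in the Igfbp3 cluster. At resolution 1.6 these peaks moved. The submandibular peak of Nfkb2 was then 9.88 CPM in a cluster led by Abhd2 and Dqx1, and that of Relb 10.1 CPM in one led by Ccne2 and Ccne1, and their lowest clusters differed too (led by Fst and Barx1 for Nfkb2, by Nusap1 and C2cd4b for Relb). The parotid peak of Nfkb2 was then 12.9 CPM in a cluster led by Ngfr and Igfbp3, and that of Relb 24.4 CPM in one led by Nkx6-3 and Egr4. The Pearson r of log2 levels of Nfkb2 and Relb was 0.84 over the 9 submandibular and 0.68 over the 12 parotid clusters, which share a library within each gland, and at resolution 1.6 it was 0.46 over 17 submandibular and 0.64 over 16 parotid clusters. The parotid Igfbp3 cluster was also the parotid cluster highest in Sox10, at 102 CPM. The submandibular Ung cluster had 65.7 CPM of Sox10. Over clusters, Relb and Sox10 had an r of 0.56 in the submandibular and 0.76 in the parotid gland. Nfkbia followed Relb in the parotid clusters (0.75) more closely than in the submandibular ones (0.26).

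**Figure D5:**
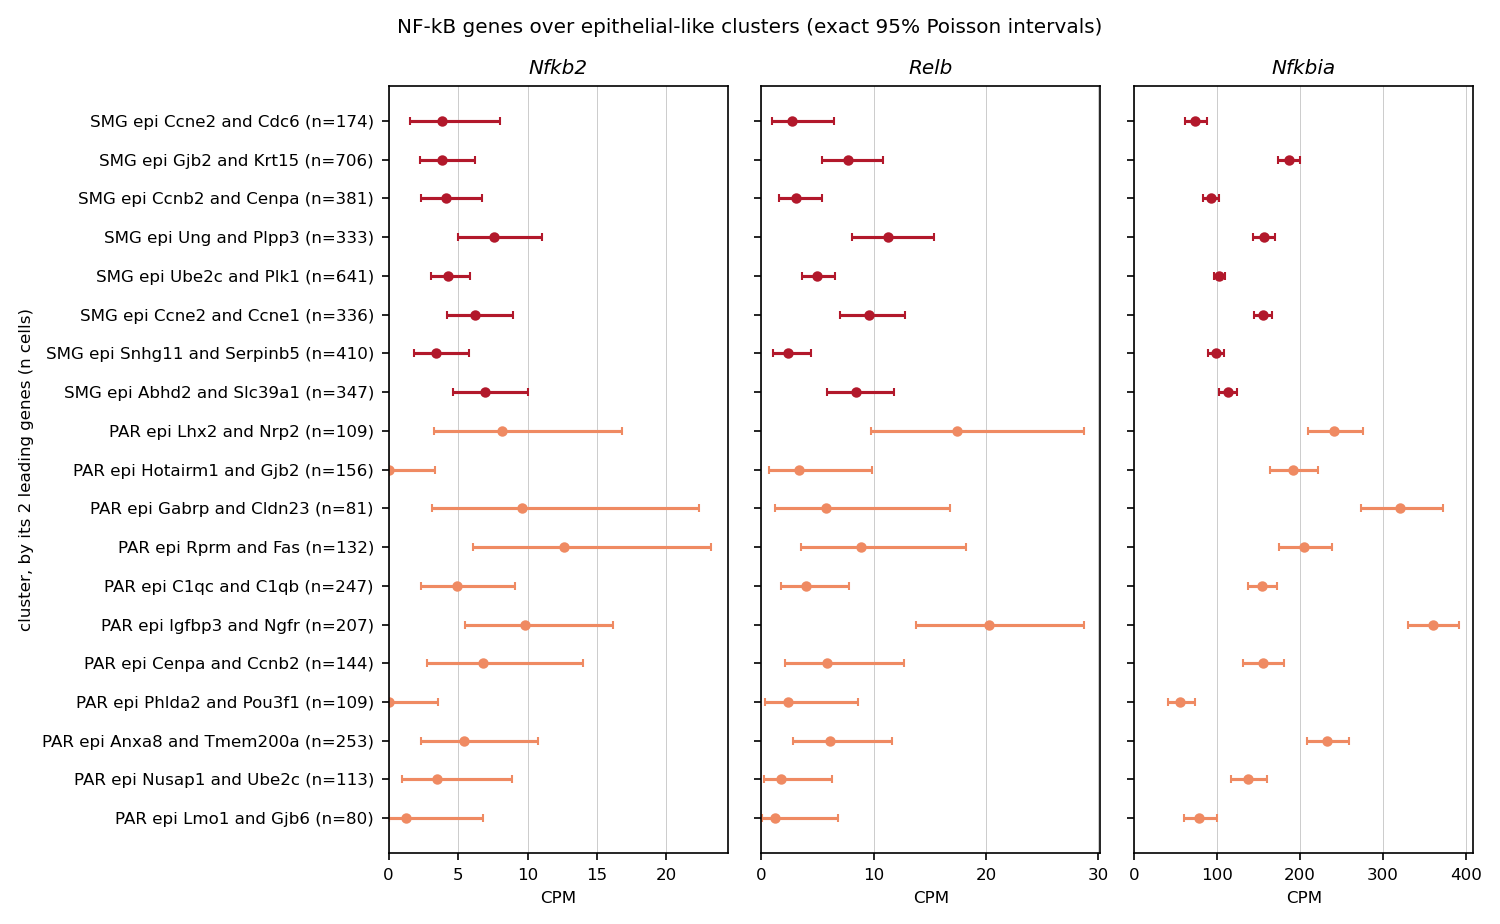
Nfkb2, Relb and Nfkbia over 8 of the 9 submandibular and 11 of the 12 parotid epithelial-like clusters, in CPM with exact 95% Poisson intervals (at 0 UMIs, a bar to the limit of 3 UMIs), clusters named by their 2 leading genes with the number of cells (SMG submandibular, PAR parotid). Relb is highest in the parotid Igfbp3 and Ngfr cluster at 20.2 CPM and in the submandibular Ung and Plpp3 cluster at 11.3 CPM.

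The minor cell classes of the mesenchyme libraries held some of the members as well. Skeletal muscle-like cells had Tnfrsf19 at 21.0 CPM (14.7 to 29.0) in the submandibular and 22.9 CPM (18.2 to 28.4) in the parotid library. Endothelial-like cells had Nfkb2 at 13.9 CPM (8.23 to 21.9) in the submandibular and 20.6 CPM (11 to 35.2) in the parotid library. Relb stood at 16.2 CPM (10.0 to 24.8) and 14.3 CPM (6.52 to 27.1) in the submandibular and parotid endothelial-like cells, and Nfkbia at 102 and 209 CPM. In both libraries the endothelial-like cells thus had higher Nfkb2 and Relb CPM than the mesenchymal-like cells, without overlap of the intervals for Nfkb2. Edar had at most 1 UMI in each minor class of at least 50 cells.

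By the 5 CPM limit Eda and Edar are too low to judge in each of the 4 comparisons. Nfkb2 is too low in the submandibular epithelium and mesenchyme comparison and in that of the mesenchymes. The other members, Edaradd, Tnfrsf19, Nfkbia and Relb, could be judged in each comparison. A limit of 1 CPM would leave 0 members too low in each main class and a limit of 10 CPM would leave 4, namely Eda, Edar, Nfkb2 and Relb. Edar, though under the limit, had a tissue difference whose interval stays above 5-fold in the submandibular gland. The receptor in epithelium was thus measurable, whereas a tissue difference of the ligand in the parotid gland was not detectable at this depth.

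The rest of the pathway was read from lists of 12 signal transducers, 9 NF-kB subunits and inhibitors, 13 genes reported to respond to ectodysplasin and 16 other TNF family genes. Among the transducers, 10 could be judged in the submandibular epithelium over mesenchyme comparison, where 1 was called higher, beside 9.63% of all genes, and 1 lower, beside 21.9%, with a median log2 ratio of -0.18 for the list and -0.24 over all genes. In the parotid gland 1 of 9 was called higher, beside 9.58%, and 0 lower, beside 12.6%, with medians of 0.29 and -0.05. Traf3, a brake on non-canonical signalling, was called higher in epithelium in both, at 10.5 against 4.14 CPM in submandibular and 7.94 against 3.55 CPM in parotid cells. Map3k14, the kinase that drives that branch, was called lower in submandibular epithelium, at 1.81 CPM against 5.12 CPM in the mesenchyme. Between the glands 0 of 9 transducers were called in epithelium, beside 3.01% of all genes higher and 5.02% lower in submandibular cells. In mesenchyme 0 of 8 were called, beside 7.48% higher and 4.44% lower. Eda2r, the receptor of the other ectodysplasin isoform, had 6 and 3 UMIs in submandibular and parotid epithelium, and 15 and 3 UMIs in submandibular and parotid mesenchyme.

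Among the NF-kB list, Nfkbib, which encodes IkB-beta, was the 1 gene of 5 called higher in epithelium in each gland (all genes 9.63% submandibular and 9.58% parotid), at 30.4 against 14.6 CPM in submandibular and 41.2 against 20.0 CPM in parotid cells. In the submandibular gland 0 of 5 were called lower in epithelium, beside 21.9% of all genes. In the parotid gland 1 of 5, Nfkbiz, was called lower in epithelium (4.39 CPM) than in mesenchyme (15.4 CPM), beside 12.6%. The largest gland difference of the list was Bcl3, an atypical IkB gene that binds p50 and p52 dimers. It had 222 UMIs in submandibular and 25 in parotid epithelium, 5.81 and 1.89 CPM, and 212 UMIs in submandibular and 4 in parotid mesenchyme, 8.68 and 0.169 CPM. The ratios were 3.07 (2.03 to 4.85) in epithelium, where it was the 1 gene of 5 called (3.01% of all genes higher), and 51.4 (19.8 to 190) in mesenchyme. In mesenchyme 6 genes could be judged, and Bcl3 was the 1 called higher in submandibular cells, beside 7.48% of all genes. Nfkbiz was the 1 called lower in submandibular cells, at 3.64 CPM against 15.4 CPM in parotid cells, beside 4.44%. The canonical subunit gene Nfkb1 stood at 14.2 and 23.0 CPM in submandibular and parotid epithelium, and at 16.3 and 13.8 CPM in submandibular and parotid mesenchyme. Its partner gene Rela stood at 20.3 and 19.5 CPM in submandibular and parotid epithelium, and at 26.8 and 19.9 CPM in submandibular and parotid mesenchyme. Both were under 2-fold in each comparison.

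The genes reported to respond to ectodysplasin in mouse skin appendages, teeth or glands were mostly higher in epithelium where they could be judged. In the submandibular gland 3 of 5 were called higher in epithelium, beside 9.63% of all genes, and 1 lower, beside 21.9%. In the parotid gland 7 of 8 were called higher, beside 9.58%, and 1, Ccnd1, lower, beside 12.6%. The medians of log2 ratios were 1.41 and 5.49 in the submandibular and parotid glands, beside -0.24 and -0.05 over all genes. Wnt10a had 625 UMIs in submandibular epithelium against 2 in submandibular mesenchyme, and 592 UMIs in parotid epithelium against 0 in parotid mesenchyme (up to 0.127 CPM). Dkk4 had 158 UMIs in parotid epithelium and 1 in parotid mesenchyme. Icam1 stood at 11.2 against 2.37 CPM in submandibular epithelium and mesenchyme, and at 22.8 against 0.127 CPM in the parotid ones. Pthlh was called lower in submandibular epithelium (3.24 CPM) than in its mesenchyme (39.4 CPM).

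Between the epithelia, 7 of 8 genes of the list were called lower in submandibular than in parotid epithelium, beside 5.02% of all genes, and 0 higher, beside 3.01%. The median log2 ratio was -1.50, beside -0.04 over all genes tested. Shh had 2 UMIs in submandibular and 69 in parotid epithelium, 0.0523 and 5.22 CPM, and 65 of the 69 lay in the Lhx2 cluster. Dkk4 stood at 0.262 CPM in submandibular and 12 CPM in parotid epithelium, Pthlh at 3.24 and 17.2 CPM, and Ltb at 4.21 and 12.3 CPM. Shh, Dkk4, Pthlh and Ltb reached the 5 CPM limit in parotid epithelium only, so they entered the count through the class where they are high. Another 5 of the 13 genes were too low to judge in both epithelia. In mesenchyme 1 of 2 genes, Pthlh, was called higher in submandibular cells, at 39.4 CPM against 2.19 CPM, beside 7.48% of all genes. None was called lower there, beside 4.44%. Many of these genes answer to other signals too, and the list was not measured against a change of ectodysplasin in these glands.

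Of the other TNF family genes, 4 of 6 were called higher and 1 lower in submandibular epithelium over mesenchyme, beside 9.63% and 21.9% of all genes. In the parotid gland 3 of 6 were called higher and 1 lower, beside 9.58% and 12.6%. Fas, the death receptor gene, stood at 34.3 against 0.205 CPM in submandibular epithelium and mesenchyme and at 29.0 against 1.22 CPM in the parotid ones. Ngfr (62.7 against 14.0 CPM and 29.6 against 8.69 CPM) and Tnfrsf12a, the TWEAK receptor gene (11.3 against 2.33 CPM and 8.70 against 2.53 CPM), had the same direction. Tnfsf12, which encodes the ligand TWEAK, had the opposite one, with 0.471 CPM in submandibular epithelium against 14.0 CPM in its mesenchyme and 0.454 CPM in parotid epithelium against 8.10 CPM in its mesenchyme. Between the epithelia 1 of 5 was called, Ngfr, higher in submandibular cells (3.01% of all genes). Between the mesenchymes 0 of 4 were called, beside 7.48% of all genes higher and 4.44% lower in submandibular cells.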

How the data were processed

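Single-cell RNA was measured in 4 libraries, 1 per group. The authors deposited raw counts of UMIs per gene and barcode, made with Cell Ranger 2.1.1 on the mm10 build (per the submitters' processing notes). Of 15351 barcodes, 14884 passed a minimum of 500 genes and a ceiling of 10% mitochondrial UMIs. Scrublet called 9 doublets (0.0605%), so doublets were in effect not removed. Within each library, 2000 variable genes, 30 components, 15 neighbours and Leiden resolution 0.8 (scanpy 1.11.5, igraph 0.11.9) gave 59 clusters in all, 57 named from markers. A cluster with Epcam in at least 25% of cells was named from epithelial lists only, and 2 clusters with a median mitochondrial share under 1% stayed unnamed; both rules were set after seeing the data. UMIs were summed per class. Exact Poisson intervals were used for levels, conditional binomial for ratios and Clopper-Pearson for shares; with 0 UMIs, 3 UMIs gave the upper limit. Medians of log2 ratios put genes with 0 UMIs in a class at that limit. Like patterns used log2(CPM + 1). TMM came from edgeR 4.0.16, for scaling only. Gene coordinates came from GENCODE (27645 of 27998 identifiers matched). Strand use in counting was not given in the sources used here. Members and lists were chosen with earlier results of these data known. Named genes were the 7 members, up to 4 called genes of each list per comparison and the 5 most like genes; Eda2r, Nfkb1, Rela and the genes shown for the Lhx2 cluster were added after their values were seen. Some values of single clusters are not reported here. The code for ratios and their intervals was tested on simulated Poisson counts, which hold counting error only.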

Additional observations from a re-analysis of the deposited data

Results flagged for a closer look

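Several members differed in direction between glands or tissues. None of these differences was tested, because each group is 1 library. Eda had an epithelium over mesenchyme ratio of 0.608 in the submandibular gland and 1.28 in the parotid gland. For Relb the same ratio was 0.723 in the submandibular and 1.49 in the parotid gland. Under TMM scaling the submandibular intervals of both genes included 1. Submandibular over parotid, Relb had a ratio of 0.739 in epithelium and 1.53 in mesenchyme. Edar had a submandibular over parotid ratio of 0.554 in epithelium and 4.85 in mesenchyme, the second from 5 UMIs against 1.

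Signal was also seen in cells outside the comparisons. The unnamed submandibular epithelium cluster of 140 cells, with a median mitochondrial share of 0.086%, had Edaradd at 11.5 CPM, Tnfrsf19 at 5.73 CPM, Nfkbia at 68.7 CPM and Nfkb2 at 5.73 CPM. The unnamed parotid epithelium cluster of 93 cells, with a share of 0.097%, had Nfkbia at 125 CPM.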

How the results depend on the processing

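No paired analysis was possible because each group is 1 library. Over all members and alternatives, 238 ratios stayed within the interval of the reported ratio and 14 did not; no called ratio changed direction. Intervals of 4 ratios changed their position relative to 1 under TMM scaling: those of Eda, Relb (epithelium over mesenchyme) in the submandibular gland and of Relb between the epithelia came to include 1, and that of Nfkb2 in the submandibular gland came to lie above 1. Shares of cells with a UMI depended on depth: 15 of 28 moved out of their interval when cells were thinned to 2000 UMIs, and 24 of 28 without thinning. At Leiden resolution 1.6 the highest cluster level of a member moved out of its interval in 4 of 28 cases: Edaradd in submandibular epithelium (33.3 CPM) and mesenchyme (40.3 CPM), and Nfkbia in parotid epithelium (393 CPM) and submandibular mesenchyme (135 CPM). Which cluster was highest also changed for Nfkb2 and Relb, and for other members. In submandibular epithelium the highest Edar and Edaradd clusters were then led by Abhd2 and Dqx1. In parotid epithelium the highest Edaradd cluster was led by Rprm and Mme. In parotid mesenchyme the highest Tnfrsf19 cluster was led by Col8a1 and Gfra2, and that of Eda by Ccnb2 and Cdkn3. Edar in parotid epithelium stayed highest in the Lhx2 and Nrp2 cluster. The count of members called higher in submandibular epithelium over mesenchyme (1) was 2 with all barcodes, with TMM scaling, with the mean over cells and with no minimum CPM, and 3 at a ratio of 1.5. Tnfrsf19 was joined by Nfkbia in the first 3 of these settings. The count lower in submandibular than in parotid epithelium (1) was 2 with the mean over cells, where Edar joined Tnfrsf19. In submandibular over parotid mesenchyme the count higher (1) was 3 with no minimum and 2 at a ratio of 1.5, and the count lower (1) was 2 at a ratio of 1.5. At 50 CPM each of these counts, and the 2 called higher in parotid epithelium over mesenchyme, was 0. In that parotid comparison Nfkbia (1.87) also passed at a ratio of 1.5, and Edar (113) with no minimum CPM. Members too low in each main class (2) were 0 at 1 CPM and 4 at 10 CPM. TMM shifted log2 ratios by 0.28 and 0.04 (epithelium over mesenchyme, submandibular and parotid), 0.12 (epithelia) and -0.12 (mesenchymes). The settings without mesenchymal-like cells with epithelial UMIs, without the submandibular mesenchyme cluster with most Epcam cells and without the Lhx2 cluster were chosen after seeing the data. Depth limits Eda and Edar most.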
